A study of Homo sapiens with 6 samples.

Results

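RNA polymerase I is described here through 10 genes of its machinery, chosen by symbol: the subunit genes POLR1A, POLR1B, POLR1C, POLR1E and POLR1G, the transcription factor genes UBTF, RRN3, TAF1B and TAF1C, and the termination factor gene TTF1. All 10 were found among the 28307 genes of the table, and all 10 passed the filter on low counts. The libraries are of OCI-AML3, an established human acute myeloid leukaemia line whose mutant NPM1 protein (NPM1c) is held in the cytoplasm. In 3 libraries the cells had been transfected with an siRNA against NPM1c (siNPM1c) and in 3 with a control siRNA (siControl), each at 10 nM. Both groups received the same lipid reagent, were collected on day 3, carry the same batch label and are recorded without a further genetic change, so that the labels separate them by the siRNA alone. A single line and a single siRNA against NPM1c were studied. Whether the 3 libraries of a group are separate cultures is not stated, and p-values cover the variation among these libraries only, some or all of which may be technical.

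RNA polymerase I transcribes the repeated ribosomal DNA in the nucleolus into the long precursor of the 18S, 5.8S and 28S ribosomal RNAs. UBTF coats the active repeats, the SL1 complex of TBP and its TAF1 partners marks the promoter, RRN3 brings the polymerase to it, and TTF1 binds the terminators. Output of this system follows growth signals and MYC, and nucleophosmin, the product of NPM1, works in the same compartment on later steps of ribosome assembly.

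Sequences just before the annotated start are shown for the member with the largest decrease (POLR1C), for the member that was higher under the main scaling (UBTF), and for the one member whose window held the E-box CACGTG, the site of MYC and related factors. Each is 120 bases long, 5′ to 3′ on the strand of the gene, from RefSeq on GRCh38.p14, and capitals mark the E-box. They lie at chr6:43516969-43517088 on the plus strand, chr17:44220883-44221002 on the minus strand and chr19:45406524-45406643 on the plus strand. The sequence before a second annotated start of UBTF, at chr17:44219676-44219795 on the minus strand, is not shown.
POLR1C: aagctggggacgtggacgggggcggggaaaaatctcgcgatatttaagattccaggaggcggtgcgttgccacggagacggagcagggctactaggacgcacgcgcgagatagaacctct
UBTF: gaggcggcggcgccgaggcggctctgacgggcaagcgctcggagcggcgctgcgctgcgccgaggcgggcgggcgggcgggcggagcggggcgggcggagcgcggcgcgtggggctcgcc
POLR1G: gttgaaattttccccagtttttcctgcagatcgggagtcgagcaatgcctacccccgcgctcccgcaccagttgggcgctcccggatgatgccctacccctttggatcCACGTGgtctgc
The E-box is its own reverse complement, so a single search covers both strands, and it was sought in windows from 250 bases before to 50 bases after a start. It was present in 1 of the 13 windows of the members, that of POLR1G, beginning 12 bases before the start, and in 7.26% of all 35116 windows. The 13 windows belong to 9 members, some of which have more than 1 annotated start. POLR1E has no entry in that table. The match is a description of these letters and not of binding.

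Total counts were 15338450 to 25190122 in the siNPM1c libraries and 15075235 to 23828944 in the siControl libraries. Genes of ribosomal RNA, the product of the polymerase, took 70.2% ± 0.813 (SD, n = 3) of the counts in siNPM1c libraries and 63.8% ± 0.753 in siControl libraries, without overlap, with an exact two-sided permutation p of 0.1, the smallest that 3 against 3 libraries can give. These counts lay almost wholly on 2 copies of the precursor gene, RNA45SN2 and RNA45SN3, and do not separate precursor from mature ribosomal RNA. The share is therefore not a measure of transcription by the polymerase, and the part of library preparation in it was not tested. Counts of the 2 copies were close, with 5221014 and 5381609 in siNPM1c replicate 1 and 4654005 and 4812131 in siControl replicate 1. How reads mapping to both copies were counted is not given in the sources used here. Such reads may be held more than once in the shares and in the total counts. The 10 members together had 2037 to 3244 counts per siNPM1c library and 2896 to 4254 per siControl library. NPM1, the target, was at 23.2 ± 1.02 CPM (counts scaled to a common library size after TMM normalization) in siNPM1c libraries and 50.1 ± 0.984 CPM in siControl libraries, a value that sums the mutant and normal alleles. Of the 9 myeloid markers, 8 were detected above the filter in this line, while KIT stayed at or under 0.0609 CPM on average in both groups. The 9 summed to 463 to 471 CPM in siNPM1c and 370 to 381 CPM in siControl libraries, a sum carried mainly by CEBPA (260 ± 3.26 CPM in siNPM1c and 217 ± 3.34 CPM in siControl) and SPI1 (124 ± 1.8 and 79.5 ± 1.65 CPM). The markers did not move together: HOXA9 was at 3.92 ± 1.07 CPM in siNPM1c and 7.11 ± 1.05 CPM in siControl libraries, MEIS1 at 2.14 ± 0.514 and 5.49 ± 0.549 CPM, and CD33 at 8.53 ± 0.152 and 9.03 ± 0.554 CPM. The part of these shifts in the results below was not tested. The T cell marker CD3D and the erythroid marker HBB had no counts in any library. In bulk RNA, fewer cells expressing a gene and less of its RNA per cell cannot be told apart.

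The comparison asked how the transcripts of this machinery stood on day 3 after the NPM1c siRNA. With an adjusted p under 0.05 as the threshold (quasi-likelihood test of edgeR, adjusted over 12938 genes), 4 of the 10 members fell in siNPM1c cells. These were POLR1C, TAF1B, RRN3 and POLR1A. UBTF alone rose, a direction that turned to -0.26 log2 when libraries were scaled by their total counts alone, and POLR1B, POLR1E, POLR1G, TAF1C and TTF1 did not pass. Over all genes tested 42.7% were called, 21.3% higher and 21.4% lower, so that a share of 50% among 10 members lies near the background. In 6 members the libraries of the groups were fully apart, 1 higher and 5 lower, against 49.2% of all genes tested (24.3% higher and 24.9% lower). The median log2 fold change was -0.13 over the members and -0.01 over all genes. Scaling by total counts alone, which treats the larger ribosomal RNA share of siNPM1c libraries as depth, moved these medians to -0.60 and -0.48. Unless another setting is named, directions below are those under TMM scaling and depend on that choice.

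**Figure D1:**
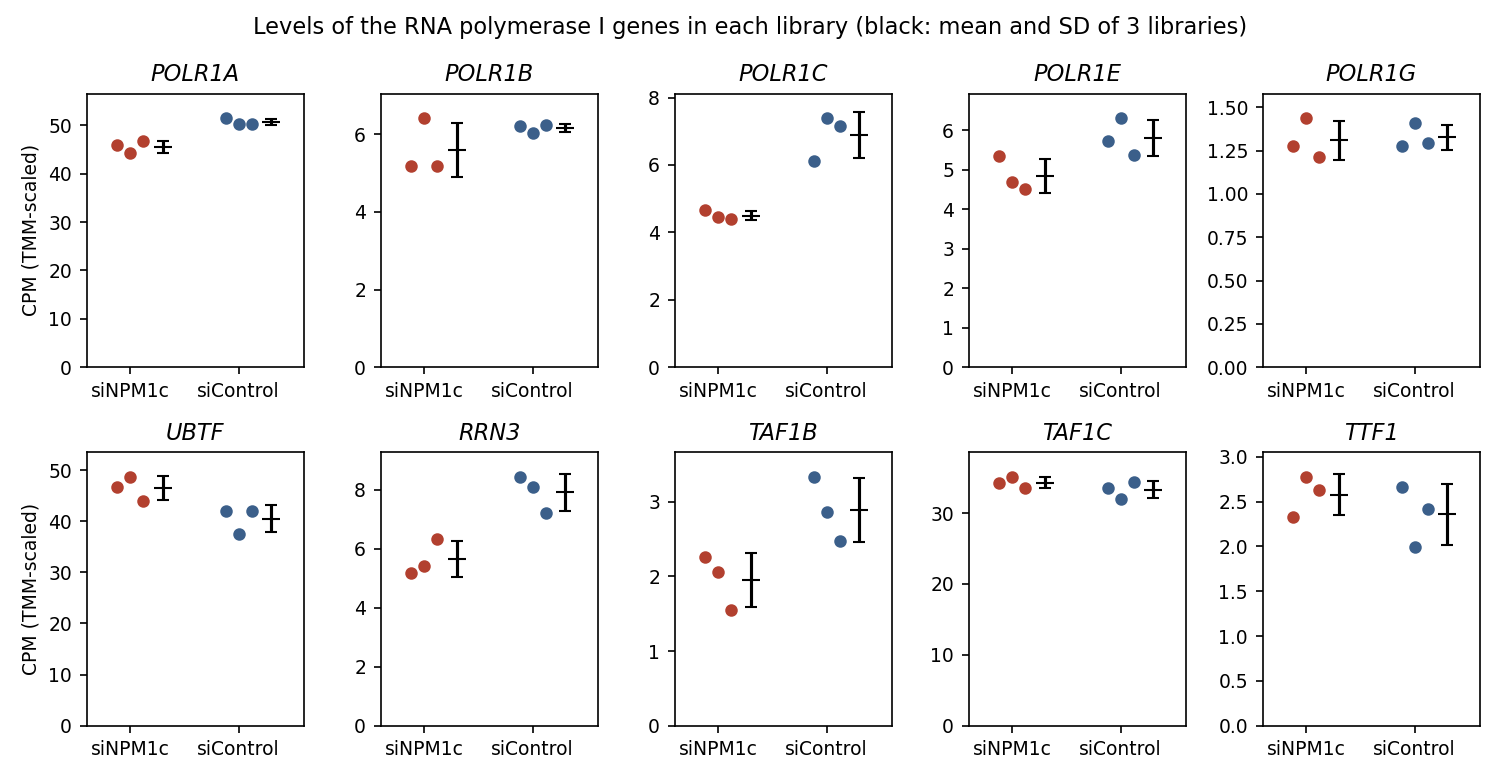
CPM after TMM scaling (y axis, from 0) of the 10 RNA polymerase I genes in each siNPM1c (red) and siControl (blue) library, with mean and SD of 3 libraries in black. The groups are apart for POLR1A, POLR1C, POLR1E, RRN3 and TAF1B, lower in siNPM1c, and for UBTF, higher in siNPM1c under this scaling and lower under total counts alone.

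Among the catalytic subunits, POLR1A, the largest subunit and part of the active centre, had 45.8, 44.2 and 46.7 CPM in the siNPM1c libraries against 51.4, 50.3 and 50.3 CPM in the siControl libraries. Every siNPM1c library lay below every siControl library, by a small margin with little spread. The log2 fold change was -0.16 ± 0.05 (SE; edgeR adjusted p = 0.00279), a 1.11-fold decrease. Without siNPM1c replicate 2 it was -0.12 with an edgeR adjusted p of 0.0605. POLR1B, its partner in the active centre, had 5.18, 6.41 and 5.19 CPM in siNPM1c libraries against 6.22, 6.04 and 6.24 CPM in siControl libraries. The groups overlapped through siNPM1c replicate 2 and the log2 fold change was -0.11 ± 0.13 (edgeR adjusted p = 0.499).

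POLR1C pairs with POLR1D to form the platform on which the polymerase is assembled, and both proteins also serve RNA polymerase III. It had 4.66, 4.45 and 4.38 CPM in the siNPM1c libraries against 6.11, 7.38 and 7.15 CPM in the siControl libraries, from 62 to 93 counts per library against 110 to 204. All siNPM1c libraries were lower and closely grouped. POLR1C fell by 0.63 ± 0.13 log2 (SE; edgeR adjusted p = 1.96e-05), a 1.54-fold decrease, and was called in each of 15 other settings. The gene lies on chromosome 6, 43509702 to 43562419 (GENCODE 29, GRCh38), where 4 opposite-strand genes share between 2.3% and 7.1% of its exon bases. Whether counting used strand is not given in the sources used here, and reads of such partners cannot be separated. POLR1D was at 8.10 ± 1.23 CPM in siNPM1c and 8.80 ± 0.68 CPM in siControl libraries, with a log2 fold change of -0.09 ± 0.11 (edgeR adjusted p = 0.55) that became 0.02 with a correction for GC content.

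POLR1E and POLR1G form a dimer on the polymerase that helps it start and elongate. POLR1E had 5.33, 4.69 and 4.52 CPM in siNPM1c libraries against 5.72, 6.30 and 5.38 CPM in siControl libraries. The groups were only just apart, and the log2 fold change of -0.28 ± 0.13 had an edgeR adjusted p of 0.0821. With only genes of at least 5 CPM in 3 libraries tested, the adjusted p of POLR1E was 0.0408. POLR1G was at 1.31 ± 0.114 CPM in siNPM1c and 1.33 ± 0.0737 CPM in siControl libraries, from 17 to 39 counts per library, with a log2 fold change of -0.01 and a 95% interval of -0.54 to 0.51. These counts therefore do not settle whether POLR1G changed by an amount within that interval. ERCC1 on the opposite strand shares 43.5% of the exon bases of POLR1G, and the value may hold its reads.

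Of the 3 further subunits of RNA polymerase I, 1 was called (33.3%), against 42.7% of all genes tested (21.3% higher and 21.4% lower). POLR1F, which carries the surface that RRN3 binds, had 3.23, 3.54 and 3.24 CPM in siNPM1c libraries against 7.27, 6.04 and 5.16 CPM in siControl libraries. The lowest siControl library stood well above the highest siNPM1c library. POLR1F fell by 0.87 ± 0.15 log2 (edgeR adjusted p = 9.79e-08), a 1.83-fold decrease and the largest among the polymerase's own subunits. POLR1H, involved in cleavage of the nascent RNA, was at 4.20 ± 0.258 CPM in siNPM1c and 3.50 ± 0.422 CPM in siControl libraries (log2 fold change 0.24 ± 0.16, edgeR adjusted p = 0.216; -0.23 under total counts alone). Its groups did not overlap, and the opposite-strand ZNRD1ASP shares 24.5% of its exon bases.

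RRN3 is the factor that makes the polymerase competent to start and through which growth signals act on it. It had 5.18, 5.41 and 6.34 CPM in siNPM1c libraries against 8.44, 8.10 and 7.21 CPM in siControl libraries. All siNPM1c libraries were lower, and siNPM1c replicate 3 came nearest to the siControl range. RRN3 fell by 0.49 ± 0.12 log2 (edgeR adjusted p = 0.000274), a 1.41-fold decrease, called in each of 15 other settings with adjusted p of up to 0.0167. RRN3 has near-identical transcribed pseudogenes on the same chromosome, number 16, so reads can be divided among them. RRN3P2 was at 3.86 ± 0.756 CPM in siNPM1c and 5.04 ± 0.765 CPM in siControl libraries (log2 fold change -0.36 ± 0.15, edgeR adjusted p = 0.042), a call lost in 7 of the 15 other settings (0.0579 to 0.285). RRN3P3 (-0.25 ± 0.16) and RRN3P1 (0.89 ± 0.40) did not pass.

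UBTF, the HMG-box protein that keeps ribosomal DNA in its active, open form, had 46.7, 48.7 and 43.9 CPM in siNPM1c libraries against 42.0, 37.6 and 41.9 CPM in siControl libraries. Every siNPM1c library was above every siControl library after TMM scaling. UBTF rose by 0.21 ± 0.05 log2 (edgeR adjusted p = 9.27e-05), a 1.16-fold increase, and was at -0.26 (adjusted p = 3.67e-06) under total counts alone. Its raw counts were 622, 1017 and 651 in siNPM1c and 757, 1038 and 780 in siControl libraries.

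SL1, the promoter complex, is built from TBP and the TAF1 proteins, and its genes moved in different directions. TAF1B, the subunit that contacts the promoter and resembles the general factor TFIIB, had 2.25, 2.06 and 1.55 CPM in siNPM1c libraries against 3.33, 2.86 and 2.47 CPM in siControl libraries. The groups did not overlap, on 23 to 43 counts per siNPM1c library and 46 to 79 per siControl library. TAF1B fell by 0.56 ± 0.20 log2 (edgeR adjusted p = 0.0169), a 1.47-fold decrease. The call was lost without siNPM1c replicate 3 (adjusted p = 0.119), without siControl replicate 1 (0.0849), with DESeq2 (0.0986) and with a correction for GC content (0.0636). TAF1C, the largest of the TAF1 proteins, was at 34.3 ± 0.766 CPM in siNPM1c and 33.3 ± 1.22 CPM in siControl libraries. Its log2 fold change of 0.05 ± 0.05 (edgeR adjusted p = 0.461) became -0.42 under total counts alone, with an adjusted p of 9.2e-12, and -0.05 with the correction for GC content.

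The other SL1 genes were read at low depth. TAF1A had 16, 22 and 19 counts in the siNPM1c libraries and 7, 15 and 14 in the siControl libraries, which gave 1.18 ± 0.116 CPM and 0.561 ± 0.183 CPM. It rose 2.07-fold (log2 fold change 1.05 ± 0.33, edgeR adjusted p = 0.00635), while its log2 value under total counts alone was 0.58 with an adjusted p of 0.107. TAF1D, whose transcript unit also holds several small nucleolar RNA genes, was at 2.62 ± 0.452 CPM in siNPM1c and 3.85 ± 0.65 CPM in siControl libraries. TAF1D fell by 0.55 ± 0.17 log2 (edgeR adjusted p = 0.0056), a call lost without siNPM1c replicate 3 (0.0625), without siControl replicate 2 (0.0718), with DESeq2 (0.0609) and with the GC correction, where the log2 value was -0.29. TBP, which all 3 nuclear polymerases use, was at 1.12 ± 0.162 CPM in siNPM1c and 1.40 ± 0.236 CPM in siControl libraries (log2 fold change -0.35 ± 0.28, edgeR adjusted p = 0.31).

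TTF1, the terminator-binding factor of RNA polymerase I and not the lung transcription factor that shares its alias, had 2.33, 2.78 and 2.63 CPM in siNPM1c libraries against 2.67, 1.99 and 2.42 CPM in siControl libraries. The groups overlapped and the log2 fold change was 0.17 ± 0.20 (edgeR adjusted p = 0.516), with -0.30 under total counts alone. Its 95% interval ran from -0.22 to 0.55.

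**Figure D2:**
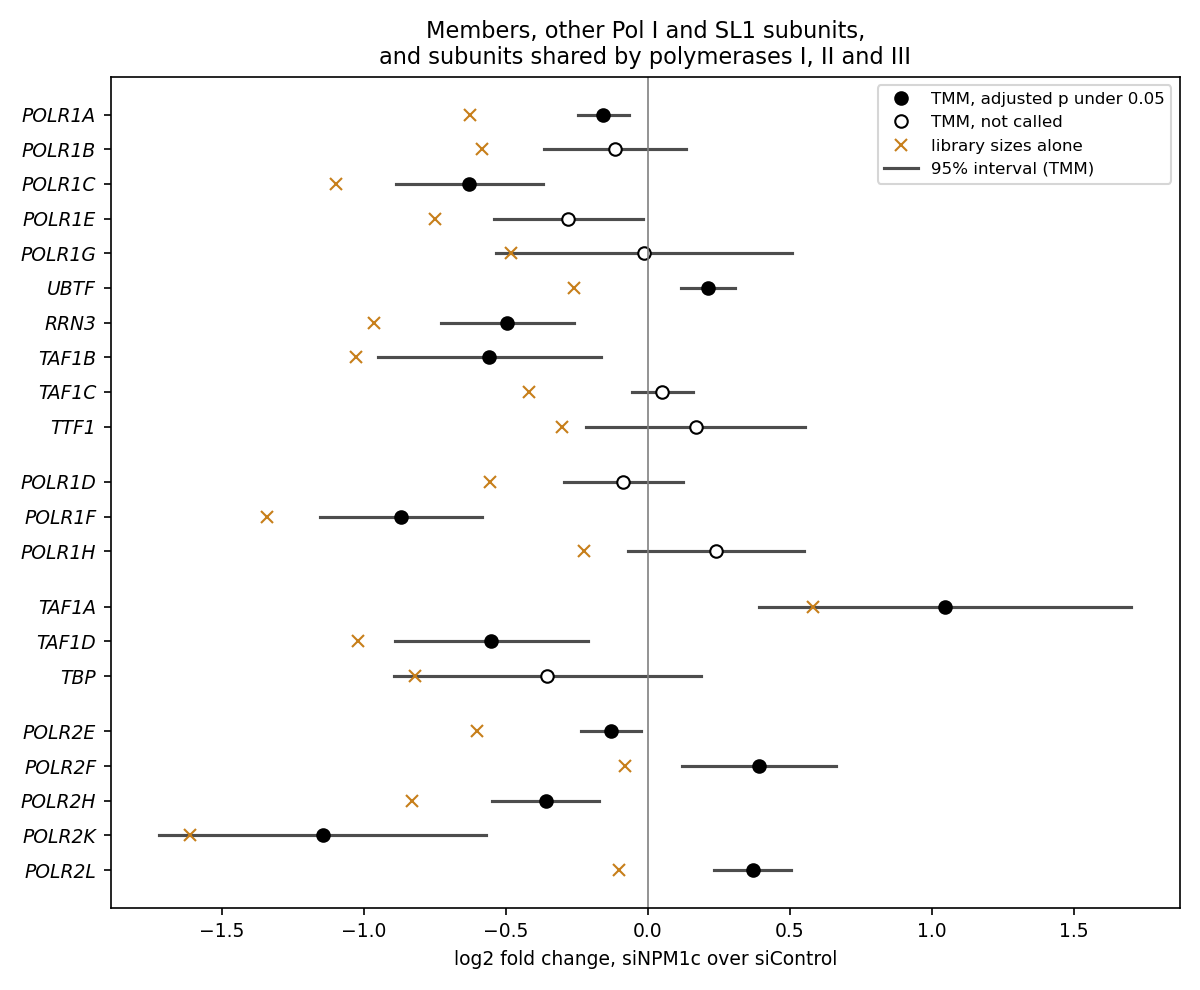
Log2 fold change of siNPM1c over siControl (x axis) for the 10 members, the other subunits of RNA polymerase I, the other SL1 subunits and the subunits shared by polymerases I, II and III, top to bottom. Circles are TMM values with 95% intervals, filled where called, and crosses are values under total counts alone, each about 0.47 lower, where UBTF, TAF1C, TTF1, POLR1H, POLR2F and POLR2L turn negative.

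Ratios of paired genes within a library do not depend on the scaling between libraries. The log2 ratio of UBTF over RRN3 was 3.15, 3.15 and 2.77 in the siNPM1c libraries against 2.30, 2.20 and 2.52 in the siControl libraries. The groups did not overlap, and the difference was 0.68 log2. TAF1C over TAF1B was 3.86, 4.03 and 4.35 in siNPM1c libraries against 3.29, 3.44 and 3.74 in siControl libraries, again apart, with a difference of 0.59. Each of these had an exact two-sided permutation p of 0.1, the smallest possible, and an adjusted p of 0.2 over the 4 ratios. Both set a gene of higher GC content over one of lower, UBTF (55.3%) over RRN3 (42.4%) and TAF1C (63.3%) over TAF1B (44.4%). With the correction for GC content, log2 fold changes were 0.16 for UBTF, -0.34 for RRN3, -0.05 for TAF1C and -0.45 for TAF1B. The part of GC content in the ratios was not tested. POLR1A over POLR1B, the partners in the active centre, averaged 3.01 ± 0.21 in siNPM1c and 3.02 ± 0.02 in siControl libraries, a difference of -0.01 (exact permutation p = 1). POLR1G over POLR1E averaged -1.81 ± 0.17 in siNPM1c and -2.04 ± 0.06 in siControl libraries, with overlap (difference 0.23, exact permutation p = 0.2).

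**Figure D3:**
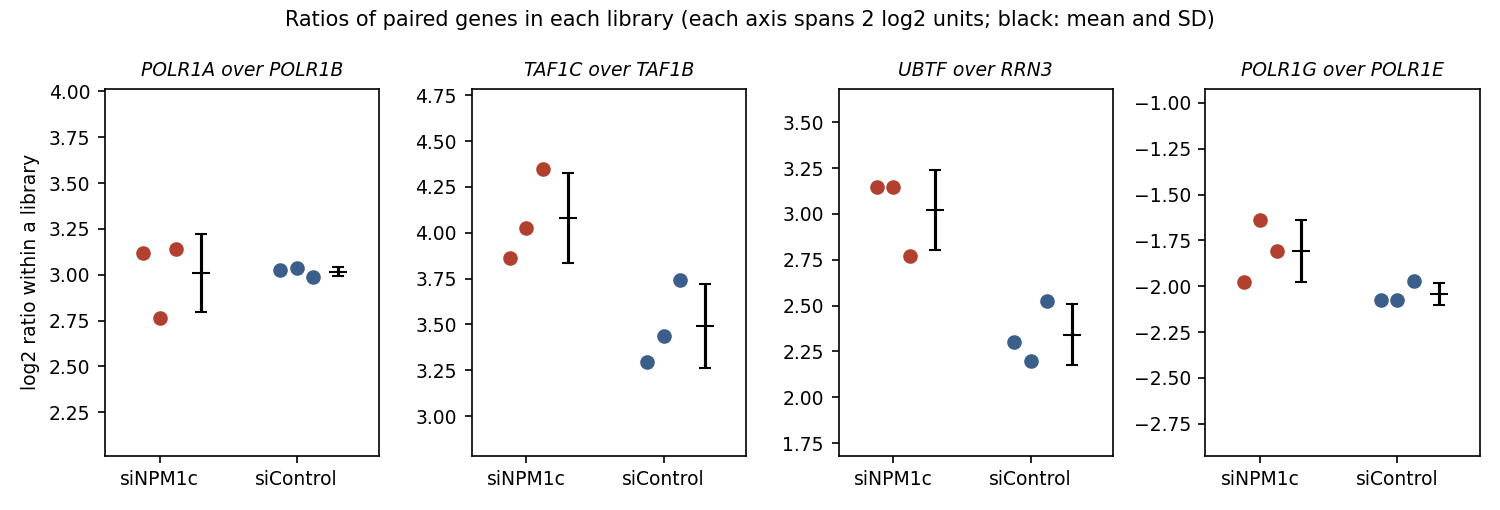
Log2 ratio of paired RNA polymerase I genes (y axis) in each siNPM1c (red) and siControl (blue) library, with mean and SD in black; every panel spans 2 log2 units. UBTF over RRN3 and TAF1C over TAF1B are higher in all siNPM1c libraries, while the groups overlap for POLR1A over POLR1B and POLR1G over POLR1E.

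Compared per kilobase of annotated exon, the members covered a wide range of levels. In siNPM1c libraries UBTF (6.64 ± 0.341 CPM per kilobase) and TAF1C (6.15 ± 0.137) stood highest and overlapped each other. POLR1A (3.37 ± 0.0928), POLR1E (1.93 ± 0.171) and RRN3 (1.36 ± 0.148) followed, each apart from its neighbours. POLR1B (0.884 ± 0.112), POLR1C (0.810 ± 0.0257) and TTF1 (0.802 ± 0.0708) overlapped in a chain, as did TAF1B (0.481 ± 0.0892) and POLR1G (0.358 ± 0.0311) at the low end. In siControl libraries TAF1C (5.97 ± 0.218) and UBTF (5.79 ± 0.366) were again the highest and overlapped. POLR1C (1.24 ± 0.122) stood there above POLR1B (0.974 ± 0.0171) without overlap, and RRN3 was at 1.91 ± 0.154. TTF1 (0.734 ± 0.106) and TAF1B (0.711 ± 0.106) overlapped, above POLR1G (0.362 ± 0.0201). These levels take all annotated exons as the length and are approximate.

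Fold changes across the table followed the GC content of transcripts, with medians of -0.25 log2 in the lowest decile and 0.11 in the highest decile of GC content. Of the members, RRN3 (42.4% GC) and TAF1B (44.4%) lay in the low range, POLR1C (49.5%) and POLR1A (51.7%) in the middle, and UBTF (55.3%) and TAF1C (63.3%) higher. Over the 10 members, which share the same 6 libraries, Pearson's r between GC content and log2 fold change was 0.48. Over the 16 genes that include the other polymerase I and SL1 subunits it was 0.23. Spearman's rho was 0.43 over the 10 members and 0.41 over the 16 genes. With each library's GC trend removed, POLR1C was at -0.61, RRN3 at -0.34, POLR1A at -0.17 and UBTF at 0.16 log2, all still called with edgeR adjusted p of 2.73e-05, 0.0167, 0.00086 and 0.00265. POLR1F was at -0.63 (adjusted p = 0.000128).

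**Figure D4:**
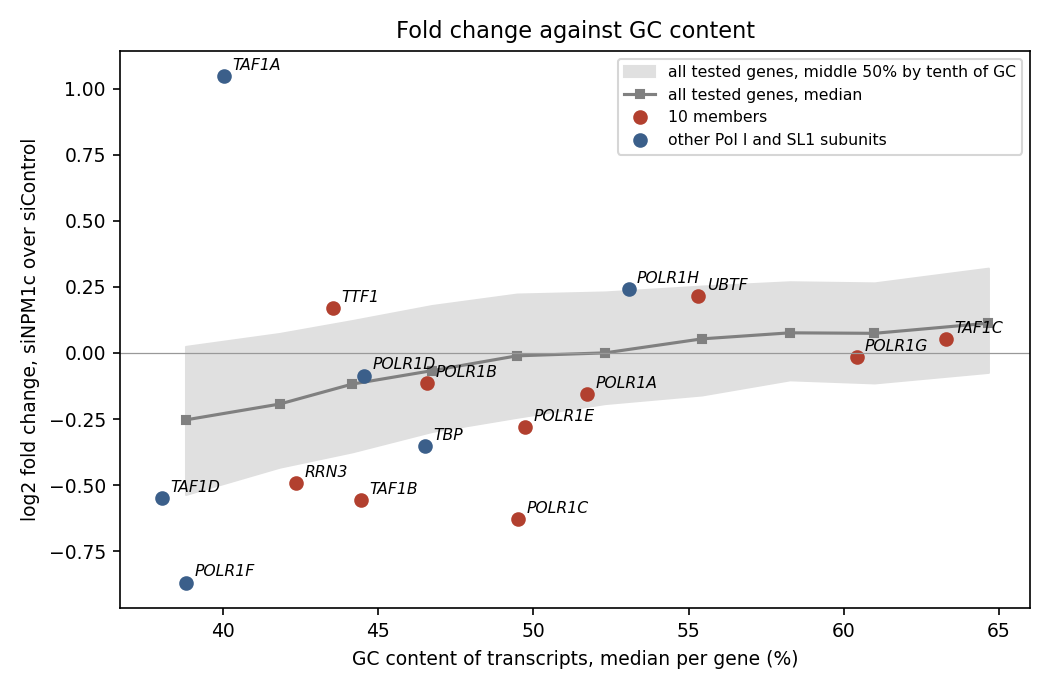
Log2 fold change of siNPM1c over siControl under TMM scaling (y axis) against the median GC content of a gene's transcripts (x axis, percent) for the 10 members (red) and the other RNA polymerase I and SL1 subunits (blue). The grey line and band give the median and middle 50% of all tested genes by decile of GC content, and POLR1C, RRN3, TAF1B and POLR1F are among the genes below the band.

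The subunits that RNA polymerase I shares with polymerases II and III were called in 5 of 5 cases, 2 higher and 3 lower, against 42.7% called over all genes tested (21.3% higher and 21.4% lower). POLR2K fell by 1.14 ± 0.29 log2 (edgeR adjusted p = 0.000575), at 0.788 ± 0.361 CPM in siNPM1c and 1.69 ± 0.44 CPM in siControl libraries, on 8 to 45 counts. POLR2H fell by 0.36 ± 0.10 and POLR2E by 0.13 ± 0.05, while POLR2L rose by 0.37 ± 0.07 and POLR2F by 0.39 ± 0.14, both turning to about level under total counts alone (-0.10 and -0.08). The call of POLR2F was lost without siNPM1c replicate 2 (0.20 log2, edgeR adjusted p = 0.368) and with DESeq2 (0.102). That of POLR2E (0.0393) was lost without any 1 of the siNPM1c replicates or siControl replicates 1 and 3 (0.0519 to 0.162), and with DESeq2 (0.159).

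Own subunits of the other polymerases were as mixed. Of 7 of RNA polymerase II, 3 were higher and 3 lower, with a median of -0.20, a called share of 85.7% against 42.7% over all genes tested (21.3% higher and 21.4% lower). The largest subunit POLR2A rose by 0.21 ± 0.02 (-0.26 under total counts alone) and its partner POLR2B fell by 0.52 ± 0.07. POLR2J (0.30 ± 0.10) and POLR2D (0.20 ± 0.07) were higher, at -0.17 and -0.27 under total counts alone. Both calls were lost with DESeq2 and without siNPM1c replicate 3 (edgeR adjusted p = 0.0611 and 0.0536), that of POLR2J also without siControl replicate 2 (0.132) and that of POLR2D also without siNPM1c replicate 2 (0.0783) or siControl replicate 3 (0.0747). Without a filter on low counts the call of POLR2D was lost as well (edgeR adjusted p = 0.0521). POLR2C (-0.25 ± 0.10) and POLR2I (-0.59 ± 0.25) were lower, with calls lost without siNPM1c replicate 1 (0.105 and 0.146) or 3 (0.0845 and 0.174), and without siControl replicate 1 for POLR2C (0.0761) or 2 for POLR2I, where it was at -0.28. Both calls were also lost with DESeq2 (0.128 and 0.211). That of POLR2I (edgeR adjusted p = 0.0493) was lost as well with limma-voom (0.0819), without a filter on low counts (0.0619), with the size factors of DESeq2 (0.0517) and with the replicate block (0.0506). Of 10 tested own subunits of RNA polymerase III, 3 were higher and 2 lower, with a median of -0.01. POLR3GL rose 1.74-fold and POLR3D 1.52-fold, calls lost under total counts alone (0.33 and 0.14 log2), and POLR3B, one of the catalytic pair, fell by 0.66 ± 0.19. Its partner POLR3A fell by 0.27 ± 0.09, a call lost with DESeq2 (adjusted p = 0.0542). CRCP was at 0.16 ± 0.07 (edgeR adjusted p = 0.0483) and -0.31 under total counts alone. It was not called without siNPM1c replicate 2 (0.276), siControl replicate 1 (0.114) or siControl replicate 3 (0.194). The call of CRCP was also lost with DESeq2 (0.161), with limma-voom (0.0578), without a filter on low counts (0.147) and with the filter of 5 CPM (0.076). Of 11 factors of RNA polymerase III, 2 were higher and 5 lower, with a median of -0.07. MAF1, a repressor of that polymerase, rose by 0.43 ± 0.04 (-0.04 under total counts alone), while the TFIIIC subunits GTF3C4 and GTF3C3 fell by 0.34 ± 0.08 and 0.69 ± 0.17 and GTF3C2 by 0.29 ± 0.08. GTF3A, which binds the 5S gene, was at 0.29 ± 0.10 (-0.18 under total counts alone). Its call was lost without siNPM1c replicate 2 (edgeR adjusted p = 0.0563) or siControl replicate 1 (0.0569), and with DESeq2 (0.0632). BDP1, a part of TFIIIB, was at -0.28 ± 0.09, and at -0.06 with the GC correction, where the call was lost (0.637), as it was without siNPM1c replicate 2 (0.07). No test of the members against these lists was made.

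Regulators of ribosomal DNA transcription, a list of 23 genes of which 22 were tested, had 5 higher and 7 lower, with a median of -0.005. The called share of 54.5% lies near the 42.7% over all genes tested (21.3% higher and 21.4% lower). CDKN2A, whose ARF product restrains RNA polymerase I, had 14.8 ± 1.33 CPM in siNPM1c libraries and 6.03 ± 1.37 CPM in siControl libraries, and rose 2.50-fold (edgeR adjusted p = 3.6e-27). Reads of its p16 product are counted with it. KDM2A and KDM2B, histone demethylases that repress ribosomal DNA, rose by 0.45 ± 0.03 and 0.42 ± 0.05 log2, and were at -0.01 and -0.05 log2 under total counts alone. SMARCA5, the remodeller of the silencing complex NoRC, fell by 0.58 ± 0.10 log2, whereas its partner BAZ2A was at 134.8 ± 3.95 CPM in siNPM1c and 134.9 ± 4.65 CPM in siControl libraries (edgeR adjusted p = 0.869). The helicase gene DDX21 fell by 0.51 ± 0.09 and the growth kinase gene MTOR by 0.22 ± 0.05. With the GC correction SMARCA5 was at -0.32 and DDX21 at -0.31, both still called. SIRT7, a deacetylase that activates ribosomal DNA, was at 0.23 ± 0.07 (edgeR adjusted p = 0.00297) and -0.24 under total counts alone, and was not called without siControl replicate 3 (0.0761) or with the GC correction (0.0976). RRP8, of the silencing complex eNoSC, was at -0.37 ± 0.11 (edgeR adjusted p = 0.00268) and at -0.23 without siNPM1c replicate 2 (0.136). MYC was at 38.9 ± 0.906 CPM in siNPM1c and 42.6 ± 1.61 CPM in siControl libraries (log2 fold change -0.13 ± 0.05, edgeR adjusted p = 0.0271), a call lost with DESeq2 (0.142) and without siNPM1c replicate 1 (0.084), siNPM1c replicate 2 (0.145) or siControl replicate 3 (0.143). BAZ2A and MYC were named after their values were seen.

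The t-UTP proteins sit on the nascent transcript of RNA polymerase I and are needed both for its synthesis and for its first processing. Of 6 tested genes, 4 fell and none rose, against 21.4% lower over all genes, and their median was -0.51. WDR43 had 3.53 ± 0.257 CPM in siNPM1c and 6.66 ± 0.0995 CPM in siControl libraries and fell by 0.91 ± 0.14 log2 (edgeR adjusted p = 6.18e-09). NOL11 fell by 0.91 ± 0.18, WDR75 by 0.62 ± 0.19 and HEATR1 by 0.41 ± 0.08, the call of WDR75 being lost with the GC correction (adjusted p = 0.0834). That correction put HEATR1 at -0.23, NOL11 at -0.69 and WDR43 at -0.75, all called, and the transcripts of these 4 genes have 39.5% to 42.2% GC. UTP4 (-0.15 ± 0.11) and UTP15 (0.09 ± 0.25, and -0.38 under total counts alone) did not pass.

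**Figure D5:**
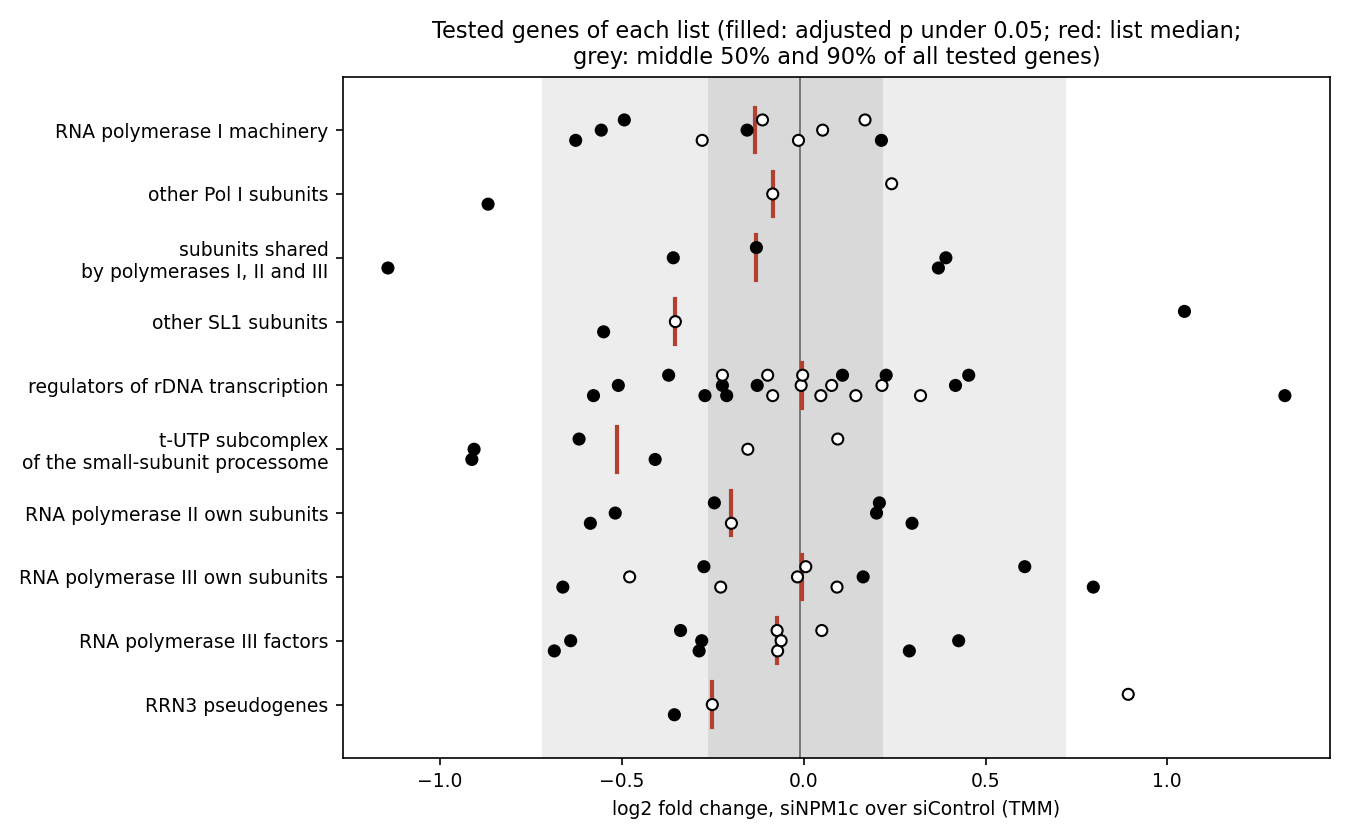
Log2 fold change of siNPM1c over siControl under TMM scaling (x axis) of every tested gene in the RNA polymerase I machinery and in the 9 other lists (rows); filled points were called, red bars are list medians and the darker grey band holds the middle 50% of all tested genes, inside a wider one. The members spread from -0.63 to 0.21 around a median of -0.13, and among lists of more than 3 tested genes the t-UTP median, -0.51, alone lies outside the darker band.

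By Euclidean distance of log2 CPM deviations over the 6 libraries, over 7391 candidates averaging 5 CPM or more, the patterns closest to POLR1C were those of H4C15 (distance 0.11), MORF4L2 (0.12) and EIF2B4 (0.13). Those closest to POLR1A, the member with the highest mean CPM over all 6 libraries, were KREMEN1 (0.04), POP7 (0.04) and MPDU1 (0.05).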

How the data were processed

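Total RNA of 6 OCI-AML3 libraries was sequenced. What the authors deposited is a single table of unnormalized whole-number counts, keyed by Entrez identifiers. Tools listed in the submitters' processing notes, without roles, include STAR 2.7.5a and cutadapt 2.6, and the builds listed are hg38 and mm10. The counting tool, its annotation and its handling of strand and multiply mapped reads are not given in the sources used here. Columns were assigned through the labels, and symbols came from RefSeq (GRCh38.p14) for 28261 of 28307 genes.

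Differences were computed with edgeR 4.0.16 under R 4.3.3: filterByExpr (minimum count 10, minimum total 15), TMM scaling, glmQLFit with robust = TRUE and glmQLFTest, two-sided, siNPM1c minus siControl, with Benjamini-Hochberg adjustment over all 12938 genes tested. Standard errors are the log2 fold change over the root of F, and 95% intervals are normal. The method was tested on simulated counts with a common dispersion, few changed genes and no shift in composition. That test therefore does not cover the choice of scaling. Exon lengths and GC content (97.1% of tested genes) came from GENCODE 29. Log2 values used a prior count of 2. Within groups, pairs of libraries differed by a chi-square of 1.46 to 2.36 per degree of freedom, more than sampling noise. Named genes were the 10 members, NPM1, all other subunits of the polymerase and SL1, up to 4 called genes per direction with the smallest p of each other list, and the nearest patterns; BAZ2A, MYC, UTP4, UTP15, RRN3P1 and RRN3P3 were added after their values were seen. The members, lists and tests were chosen with earlier results of these data known. Alternatives used other scalings, filters, DESeq2 1.42.0, limma-voom (limma 3.58.1), a replicate block, a GC offset (lowess, span 0.3) and each library left out.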

Additional observations from a re-analysis of the deposited data

How the results depend on the processing

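Of 15 alternatives, scaling by total counts alone moved the most. With it 9760 genes were called, 507 higher and 9253 lower, against 5523, 2757 and 2766, and among the members 8 were called, 0 higher and 8 lower. By DESeq2, 1754 genes were called lower, and 27 genes of the other lists were called, against 43. Log2 fold changes turned sign under total counts alone for UBTF (-0.26), TAF1C (-0.42), TTF1 (-0.30), POLR1H (-0.23), LYAR (-0.15), UTP15 (-0.38), POLR2F (-0.0794), POLR2L (-0.10), MYBBP1A (-0.42), SIRT7 (-0.24), NCL (-0.36), TCOF1 (-0.39), NOLC1 (-0.25), KDM2A (-0.0143), KDM2B (-0.0521), PHF8 (-0.33), POLR2A (-0.26), POLR2D (-0.27), POLR2J (-0.17), POLR3E (-0.46), POLR3K (-0.38), CRCP (-0.31), BRF1 (-0.42), GTF3A (-0.18) and MAF1 (-0.0419). Of these, TAF1C, TTF1, POLR1H, LYAR, UTP15, MYBBP1A, TCOF1, NOLC1, PHF8, POLR3E, POLR3K and BRF1 were not called under TMM scaling. Called members numbered 4 or 5 in the other 14 alternatives. POLR1C, RRN3 and UBTF were called in all 15, UBTF as lower under total counts alone, and with the filter of 5 CPM, POLR1E took the place of TAF1B, which was not tested. Leaving out each library gave 4631 to 5256 called genes and 4 to 5 called members. Same-numbered libraries had correlations of per-gene deviations of -0.0041 to 0.0193, and a fit with the replicate block called 5590 genes and 5 members. Ribosomal RNA shares of replicates 1, 2 and 3 were 69.4%, 71.1% and 70.2% in siNPM1c and 63.0%, 64.5% and 63.9% in siControl libraries. The same replicate number was thus lowest, and the same highest, in both groups. The correlations therefore do not show that the replicate numbers leave the samples unpaired. The members with the fewest counts (POLR1G, TAF1B, TTF1) have standard errors of 0.20 to 0.27 log2, which limits what could be detected.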
